A study of Gossypium hirsutum with 42 samples.

Results

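The low hybrid L is the F1 of the upland cotton lines SJ48 (maternal parent, A) and DT-8 (paternal parent, D), and its leaf transcriptome was set against the leaves of both inbred parents. L was named for low heterosis in yield traits, and the question was how the hybrid leaf departs from the lines that made it. The members were chosen by their labels: 3 libraries each of L, D and A leaf, which are 9 of the 42 libraries of root and leaf from 7 genotypes. The other hybrids of the same mother, H (SJ48 by Z98-15) and M (SJ48 by 851-2), and the fathers of H and M, the inbreds B (Z98-15) and C (851-2), entered only where L was compared with them and in the shared estimate of the spread. All plants were untreated seedlings in Hoagland solution, sampled when true leaves had fully expanded. Each group is thus 1 cross or 1 inbred line grown in 1 environment, and no source used here gives the hour at which leaves were taken. The letters A and D inside gene names such as Gh_A11G0926 are the 2 subgenomes of tetraploid cotton and do not refer to the parents.

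A hybrid carries 1 allele of each gene from either parent, so in the simplest case its transcript level lies midway between theirs. Genes above or below both parents depart from that additive level, and genes that sit at the level of 1 parent are described as dominant. The plant circadian clock is a loop of transcription factors in which morning MYB-like factors of the LHY and CCA1 type and the pseudo-response regulators repress each other in turn, and it times starch turnover, carbon fixation, water and mineral uptake and growth in leaves.

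Levels are FPKM, fragments scaled for transcript length and for the number of mapped fragments in the library, as the authors deposited them. Differences are on the log2(FPKM + 1) scale with their standard error, so a difference of a low gene is understated. A gene was called different at an adjusted p under 0.05 (limma, Benjamini-Hochberg over all 54835 genes tested) together with a change of more than 2-fold, which is a log2 difference beyond 1 in either direction. The mid-parent is the mean of D and A on that scale. Unless said otherwise, genes are named by a rule given with the methods, and members marked as picked afterwards were chosen once their values were seen.

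The 3 L libraries listed between 44971 and 45803 genes at 1 FPKM or more, against 42376 to 43170 in D and 42238 to 42374 in A. Their 10 most abundant genes held 5.79% to 6.03% of the summed FPKM, against 6.66% to 7.38% in D and 7.07% to 7.39% in A. Pairs of L libraries correlated at 0.910 to 0.922 on the log2 scale across genes, which are not independent replicates, against 0.923 to 0.930 for D and 0.937 to 0.942 for A. The label leaf held: the summed FPKM of 201 mesophyll markers was 29816 to 34676 in L, 32039 to 35789 in D and 29465 to 30133 in A, and at most 688 in their roots. Markers of roots summed to 48.7 to 53.1 in L leaf, 54.8 to 61.9 in D leaf and 47.9 to 56.8 in A leaf, against at least 157 in roots. Phloem markers summed to 239 to 351 in L, against 191 to 236 in D and 206 to 220 in A, and of the 30 tested 3 were higher in L than in A, 2 were higher than in D and none was called against the mid-parent. In such bulk libraries, fewer cells of a type and less RNA per cell cannot be told apart.

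Compared with A, 1715 genes were higher (3.13%) and 964 lower in L, together 4.89% of the genes tested. Against D, 1066 genes were higher (1.94%) and 560 lower in L, together 2.97%. The parents differed from each other at 1229 genes, or 2.24%, with 631 higher (1.15%) and 598 lower in D. The median absolute log2 difference was 0.26 for L against A, 0.23 for L against D and 0.19 for D against A. Against the mid-parent, 1110 genes were higher (2.02%) and 606 lower (1.11%), of which 167 and 78 differed more than 4-fold. Among the 1110, the 3 L libraries lay above all 6 parental libraries at 961, and among the 606 they lay below all of them at 550. The L libraries enter all of these comparisons with the parents, so the counts are not independent of each other. With the libraries quantile-normalized, the splits were 1352 to 1222 against A, 864 to 744 against D and 896 to 763 against the mid-parent, so the excess of higher genes was smaller on that scaling. The mid-parent on the log2 scale lies below the mean FPKM of the parents where they differ widely. With the mid-parent taken from mean FPKM before the log, and p kept from the main fit, 971 genes were higher and 662 lower. The excess of higher genes was smaller there too.

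**Figure D1:**
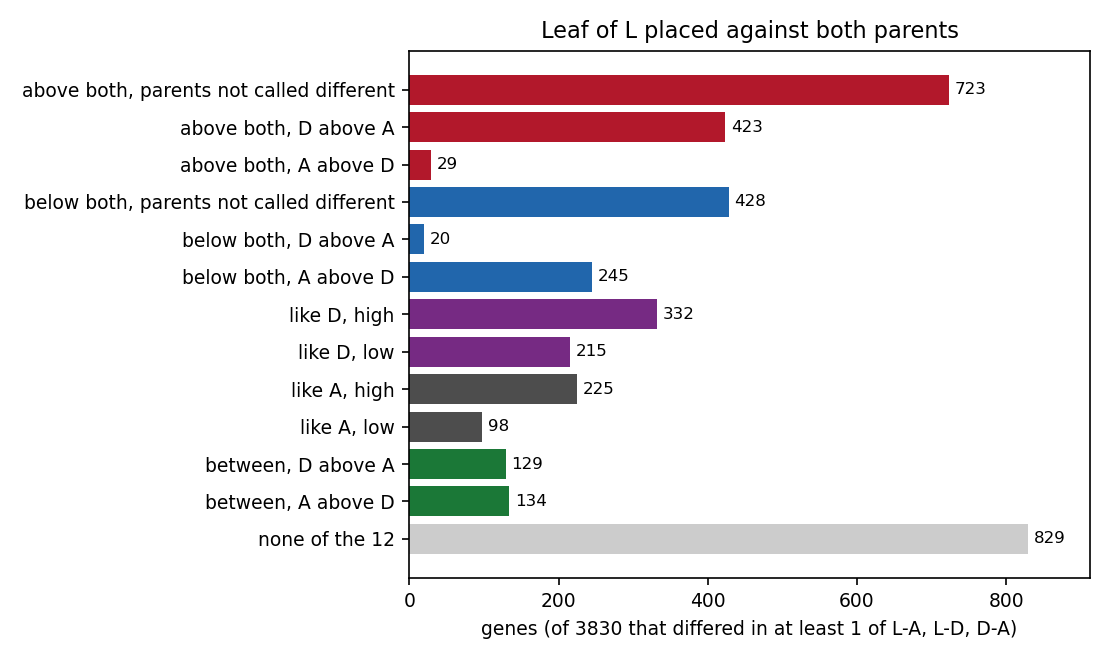
Number of genes (x axis) in each pattern of L against D and A in leaf (y axis), among 3830 genes called in at least 1 of the 3 comparisons; bars are counts and carry no error. Genes above both parents (red bars, 1175 in all) outnumber genes below both (blue bars, 693), and genes like D (332 high and 215 low) outnumber genes like A (225 high and 98 low). On quantile-normalized values, not drawn, 918 genes lay above both and 876 below both.

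The comparisons of L with each parent and of the parents with each other sorted 3830 genes, each called in 1 or more of them, with every comparison of such a gene then read by its adjusted p alone. L was above both parents at 1175 genes (30.7%) and below both at 693 (18.1%). It was like D and apart from A at 547 genes, like A and apart from D at 323, between the parents at 263, and 829 genes fell in none of the 12 patterns. The plot of pattern counts shows 723 of the 1175 and 428 of the 693 where the parents were not called different. Where they were, the departure of L leaned the way of D: 423 genes had L above D and D above A, against 29 with L above A and A above D, and 245 had L below D and D below A, against 20 with L below A and A below D. When the 2-fold limit was asked of every call, 527 genes remained above both parents and 360 below both. With the libraries quantile-normalized, 918 genes lay above both and 876 below both, so the excess above both was smaller on that scaling.

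The order of the means gave the same lean. D lay between L and A at 780 of the 1110 genes that were higher than the mid-parent in L and at 484 of the 606 that were lower, whereas it did so at 23208 of all 54835 genes tested. These orders use the same parental libraries as the mid-parent, and they are a description.

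**Figure D2:**
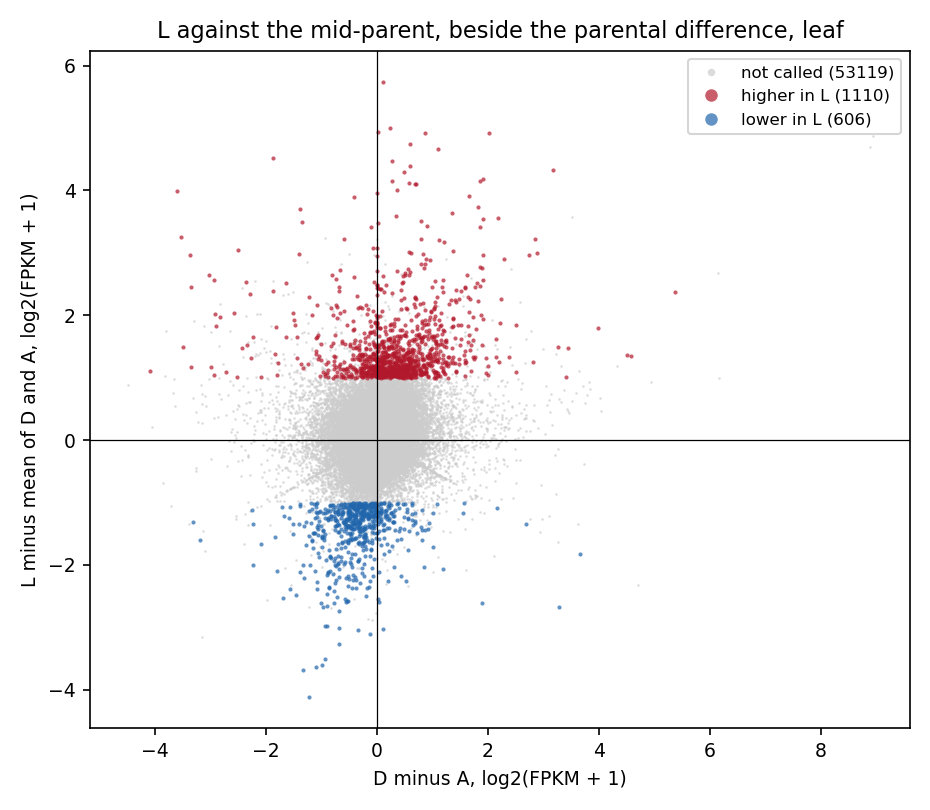
Each point is 1 of the 54835 genes tested in leaf: D minus A on the x axis and L minus the mid-parent on the y axis, both in log2(FPKM + 1), with genes called higher in L in red (1110) and lower in L in blue (606). Red points lie mostly to the right of 0, where D is above A, and blue points mostly to the left.

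Among the largest falls in L leaf were genes that the annotation assigns to the KEGG orthology entries of LHY and CCA1, described in the files as homeodomain-like superfamily proteins. Of 23 such genes tested, 14 were lower and 2 higher than the mid-parent, 14 were lower and 2 higher than in A, and 13 were lower and 2 higher than in D. This grouping was made after the values were seen. Its median log2 difference was -1.75 from A and -1.22 from D, against 0.09 and 0.07 over all genes tested, and its summed level was 152 to 162 FPKM in L, 503 to 522 in D and 747 to 806 in A.

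Gh_A11G0926 had the largest fall, with 1.42, 1.71 and 1.43 FPKM in L, against 26.8, 26.05 and 29.8 in D and 62.9, 66.8 and 67.5 in A. The log2 difference from the mid-parent was -4.12 ± 0.10, adjusted p = 1.31e-13. All 3 L libraries lay below every parental library, and the D libraries lay below every A library. A further member, Gh_D11G1068, had 1.12, 1.38 and 0.886 FPKM in L, against 16.5, 15.7 and 16.6 in D and 38.99, 41.8 and 45.998 in A. Its log2 difference from the mid-parent was -3.69 ± 0.10, adjusted p = 1.64e-13. Gh_A12G1062, the most abundant of the group, had 42.9, 45.998 and 47.4 FPKM in L, against 155, 151 and 157 in D and 184, 198 and 196 in A. On the log2 scale it departed from the mid-parent by -1.90 ± 0.10, adjusted p = 4.31e-10. The neighbouring names followed it: Gh_A12G1061 had 7.15, 8.57 and 7.09 FPKM in L, against 53.4, 55.3 and 51.7 in D and 83.2, 86.97 and 89.2 in A. Gh_D12G1185 had 22.9, 26.4 and 24.1 FPKM in L, against 107, 109 and 117 in D and 145, 159 and 152 in A. Log2 differences from the mid-parent were -3.01 and -2.36, and in neither did L overlap a parent.

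Of the other falling members, Gh_D12G1184 had 3.46, 3.52 and 3.57 FPKM in L, against 41.8, 32.2 and 40.5 in D and 75.6, 79.5 and 74.4 in A. Gh_A12G2465 and Gh_D12G2593 were at 1.01 to 1.53 and 0.885 to 1.12 FPKM in L, against 17.3 to 19.4 and 15.3 to 17.2 in D and 29.2 to 39.0 and 32.0 to 39.8 in A. The names Gh_A09G1504 and Gh_D09G1515 changed less, by -1.503 and -1.86, the first with 6.67, 4.87 and 5.02 FPKM in L, against 14.3, 15.2 and 13.97 in D and 21.1, 20.8 and 20.3 in A. Its 2 rising members, Gh_D11G0117 and Gh_A11G0102 (the second picked afterwards), ran the other way: Gh_D11G0117 had 8.11, 7.61 and 11.1 FPKM in L, against 2.52, 2.496 and 2.36 in D and 0.889, 0.763 and 1.28 in A. Against the mid-parent, the log2 difference was 1.92 ± 0.12, adjusted p = 6.91e-09. In all 16 called members, falling and rising, the mean of D lay between those of L and A, as it did at 780 of all 1110 higher and 484 of all 606 lower genes.

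Pseudo-response regulators, which repress the morning genes in the plant clock, were 14 in all and all tested. Of these, 7 were higher and none lower than the mid-parent, 10 were higher than in A, and 4 were higher and 1 lower than in D. With other settings at most 1 of the 14 was called lower than the mid-parent, and an unadjusted p under 0.05 called none lower. PRR5 Gh_Sca013634G01 changed most, with 32.2, 28.1 and 38.9 FPKM in L, against 5.04, 5.71 and 4.36 in D and 0.460, 0.836 and 0.699 in A. Its log2 difference was 3.42 ± 0.15, adjusted p = 7.78e-11, and it stands in the files on an unplaced scaffold. The abundant PRR7 Gh_A09G1502 had 66.3, 65.7 and 70.9 FPKM in L, against 48.9, 50.2 and 48.2 in D and 11.7, 13.01 and 16.8 in A. L was 2.22 above A and 0.45 above D on the log2 scale, and D was 1.77 above A.

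PRR7 Gh_D09G1513, picked afterwards, had 47.2, 39.1 and 49.2 FPKM in L, against 22.02, 25.4 and 24.6 in D and 5.44, 5.93 and 7.39 in A. The 1 member lower than in D was PRR9 Gh_D11G3525, also picked afterwards, with 4.67, 5.55 and 4.75 FPKM in L, against 11.9, 12.7 and 12.4 in D and 7.65, 9.66 and 10.6 in A, a log2 difference from D of -1.15 ± 0.12, adjusted p = 7.00e-06. PRR9 is the earliest of the family in the daily order known from Arabidopsis, and PRR7 and PRR5 follow it. Over the list the summed level was 237 to 264 FPKM in L, 154 to 168 in D and 65.6 to 79.6 in A, with no overlap between the 3 genotypes.

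Of 12 genes of the evening clock, 1 was higher and 1 lower than the mid-parent. GIGANTEA, which binds blue-light F-box proteins and promotes flowering, was read at Gh_D02G0690 with 29.3, 33.4 and 37.1 FPKM in L, against 20.995, 22.2 and 26.1 in D and 15.04, 11.99 and 17.4 in A, and the difference from A was 1.12 ± 0.23, adjusted p = 0.00156. Against D it was 0.51 ± 0.23, adjusted p = 0.149, and was not called, and without the second A library the call against A was lost as well. FKF1 Gh_D12G1525, a blue-light receptor of the flowering pathway, had 0.636, 3.58 and 2.67 FPKM in L, against 1.37, 0.242 and 0.0711 in D and 0.123, 0.0266 and 0.0954 in A. It varied among L libraries, its lowest L library lay below the highest of D, and its call against the mid-parent (log2 1.26 ± 0.30, adjusted p = 0.00598) was lost without the second L library. Cycling DOF factor 2 Gh_D11G0738, a repressor of CONSTANS in Arabidopsis, had 1.55, 2.77 and 1.62 FPKM in L, against 3.72, 4.75 and 4.33 in D and 9.61, 10.3 and 9.89 in A. Relative to the mid-parent it changed by -1.37 ± 0.12, adjusted p = 3.32e-07, in log2 units.

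CONSTANS-like and B-box genes, zinc-finger regulators of light responses and flowering, were 67 in number, of which 7 were higher and 6 lower than the mid-parent. The higher count was 16 with a pseudocount of 0.1. Counted by description, a division made after the values were seen, 7 of 51 genes with a CCT motif or CONSTANS-like name were higher and none lower, and 6 of 16 B-box genes with no CCT domain named were lower and none higher. CONSTANS-like 9 Gh_D07G0867 had 3.92, 3.15 and 3.79 FPKM in L, against 0.350, 0.446 and 0.620 in D and 0.212, 0.688 and 0.436 in A. L and the mid-parent differed by 1.67 ± 0.13, adjusted p = 5.83e-08 on the log2 scale, and L did not overlap either parent. CONSTANS-like 9 Gh_A08G0451 had 1.76, 1.61 and 2.28 FPKM in L, against 0.491, 0.550 and 0.528 in D and 0.432, 0.574 and 0.224 in A, with 0.97 ± 0.15, adjusted p = 1.60e-04, which was not called. B-box genes with CCT domain Gh_D11G1518 and Gh_D01G0200 differed by 1.30 and 1.25, the first with 3.67, 3.25 and 3.91 FPKM in L, against 0.840, 0.828 and 0.771 in D and 0.914, 0.988 and 0.852 in A. The CCT motif genes Gh_A05G0944 and Gh_D05G1029 were low throughout, the first with 1.103, 1.79 and 1.27 FPKM in L, against 0.124, 0.114 and 0.161 in D and 0.0260, 0.244 and 0 in A, and both calls against the mid-parent were lost on quantile-normalized values. Leaving out the second L library also ended the call of Gh_A05G0944, and leaving out the third library of L or of D ended that of Gh_D05G1029. In the other direction, B-box gene Gh_D01G0544 had 2.26, 1.81 and 1.67 FPKM in L, against 10.2, 10.6 and 11.03 in D and 10.3, 14.6 and 14.3 in A. Its log2 difference from the mid-parent was -2.13 ± 0.10, adjusted p = 1.76e-10.

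**Figure D3:**
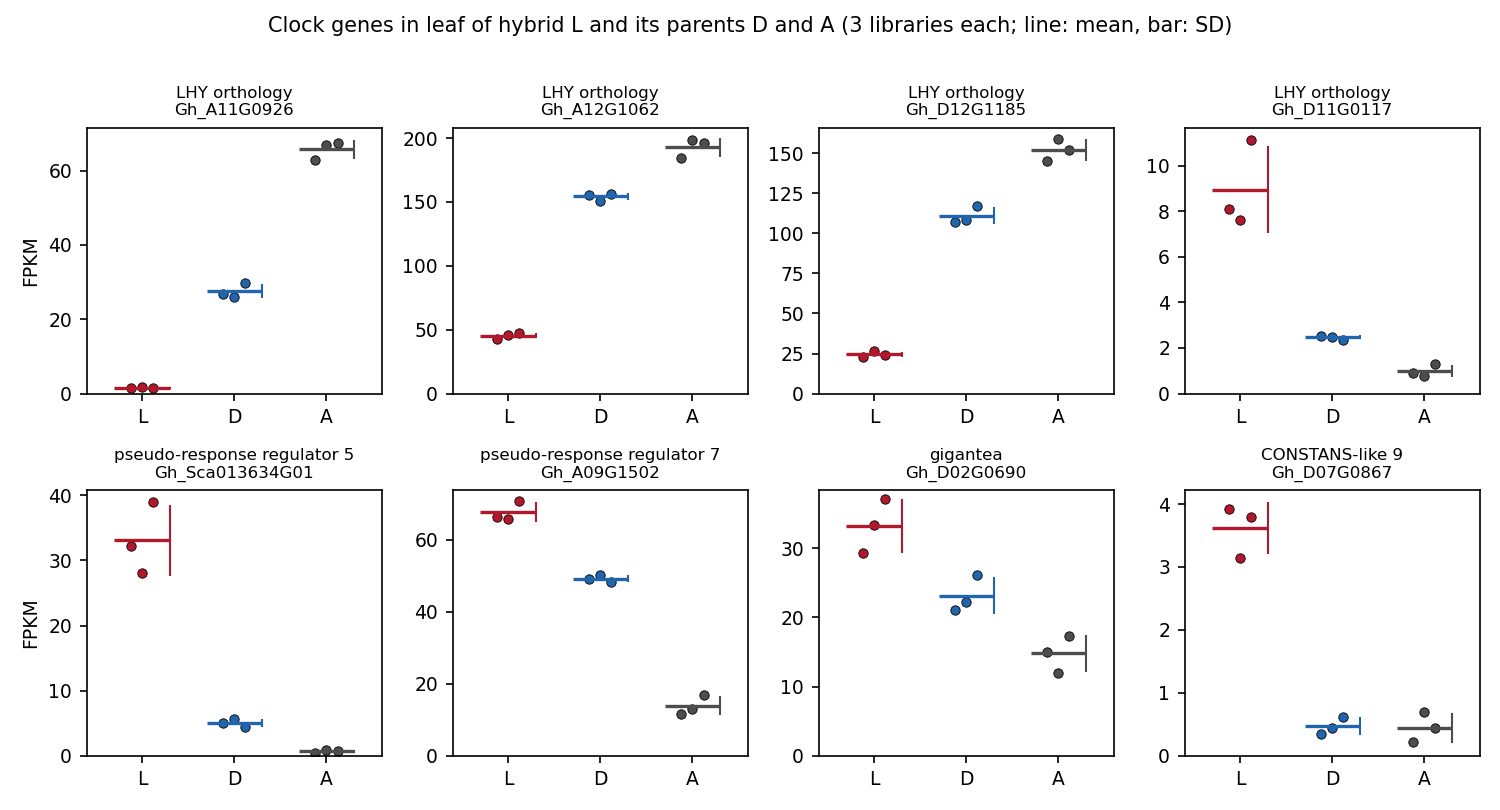
FPKM (y axis, linear, from 0) of 8 clock and flowering-time genes in the 3 leaf libraries of L, D and A (points; horizontal line, mean; vertical bar, SD). In the 3 falling LHY-type genes L lies lowest and A highest, in the rising LHY-type gene, both pseudo-response regulators and gigantea the order is reversed, and in CONSTANS-like 9 D and A lie at about the same level.

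None of the 23 LHY-type genes, the 14 pseudo-response regulators or the 67 CONSTANS-like and B-box genes passed both limits, adjusted p and 2-fold, in the test of whether L departed from its mid-parent differently from H and M. That test called 163 genes (0.297% of those tested), 116 with L higher relative to H and M (0.212%) and 47 lower (0.0857%). The 3 L libraries lay above every library of H, M, D and A at 28 of the 116, and below all of them at 5 of the 47. In this test the level of A cancels, and those of B and C enter through the mid-parents of H and M. The levels of B and C are not listed here. Side by side, Gh_A11G0926 had 1.42, 1.71 and 1.43 FPKM in L, 2.81, 2.41 and 1.59 in H, 1.16, 1.199 and 0.813 in M, 26.8, 26.05 and 29.8 in D and 62.9, 66.8 and 67.5 in A. PRR5 Gh_Sca013634G01 had 32.2, 28.1 and 38.9 FPKM in L, 40.5, 28.03 and 35.6 in H, 35.3, 36.6 and 43.2 in M, 5.04, 5.71 and 4.36 in D and 0.460, 0.836 and 0.699 in A, with a difference between the departures of -0.81 ± 0.17, adjusted p = 0.0299. Messages of these genes rise and fall over the day, and a genotype's level and its phase at the hour of sampling cannot be told apart here.

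Genes of the RCC1 family, proteins with a repeat first known from a regulator of chromosome condensation and shared by the UV-B receptor of Arabidopsis, were grouped after the values were seen, since 2 of them were among the largest falls. Of 51 tested, 6 were higher and 4 lower than the mid-parent, beside 2.02% higher and 1.11% lower over all genes. In all 10 D lay between L and A, as it did at 780 of all 1110 higher and 484 of all 606 lower genes. Gh_A10G2003 had 7.296, 8.802 and 6.69 FPKM in L, against 52.3, 43.4 and 48.1 in D and 94.7, 94.4 and 87.8 in A. On the log2 scale it departed from the mid-parent by -2.98 ± 0.08, adjusted p = 1.64e-13, and Gh_D10G2310 had 6.25, 8.12 and 6.17 FPKM in L, against 46.4, 40.4 and 44.7 in D and 89.8, 82.2 and 76.4 in A. L, D and A did not overlap in either. Gh_D10G1050 was the largest rise of the family, with 18.8, 18.2 and 18.2 FPKM in L, against 6.81, 8.25 and 6.61 in D and 4.27, 3.29 and 3.34 in A. Against the mid-parent, the log2 difference was 1.66 ± 0.09, adjusted p = 8.97e-10.

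Several of the largest rises in L leaf were genes at low level in both parents. CCR-like Gh_A11G0589 had 64.98, 37.9 and 59.9 FPKM in L, against 0.966, 2.06 and 1.33 in D and 0.287, 0.555 and 0.163 in A. Relative to the mid-parent it changed by 4.91 ± 0.23, adjusted p = 1.42e-10, in log2 units. The second CCR-like gene, Gh_D11G0676, had 29.1, 18.6 and 23.9 FPKM in L, against 0.143, 1.36 and 0.874 in D and 0, 0.298 and 0.188 in A. Both genes described as maternal effect embryo arrest 59 rose too, Gh_A03G0405 with 61.3, 55.3 and 90.5 FPKM in L, against 1.33, 2.32 and 3.02 in D and 0.723, 1.72 and 0.906 in A. Gh_D03G1135 had 38.6, 38.02 and 45.6 FPKM in L, against 1.06, 1.64 and 1.86 in D and 1.41, 0.491 and 0.575 in A. In these 4 genes the lowest L library exceeded the highest parental library at least 10-fold.

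The small heat shock protein gene alpha-crystallin domain 32.1, whose product belongs to the chaperones that hold unfolding proteins, rose at both its names. Gh_A09G0036 had 22.3, 21.1 and 28.5 FPKM in L, against 0.0644, 0.330 and 0.306 in D and 0.0376, 0 and 0.00181 in A. L and the mid-parent differed by 4.47 ± 0.18, adjusted p = 1.86e-11 on the log2 scale, and Gh_D09G0035 had 32.4, 29.9 and 39.005 FPKM in L, against 1.603, 1.63 and 1.09 in D and 0.951, 1.01 and 0.740 in A. Its log2 difference from the mid-parent was 4.01 ± 0.18, adjusted p = 1.01e-10. Of 35 small heat shock genes tested, these and 1 more were higher and none was lower, and the most abundant, HSP20-like Gh_A12G1197, had 35.9, 43.9 and 44.2 FPKM in L, against 37.2, 43.3 and 34.7 in D and 30.6, 25.98 and 23.6 in A. DnaJ co-chaperones gave 10 higher and 4 lower of 195, led by Gh_D09G0277 with 20.8, 18.8 and 19.4 FPKM in L, against 2.304, 3.23 and 2.01 in D and 0.712, 0.656 and 0.208 in A. In the other direction, Gh_D12G1290 had 0.168, 0.450 and 0.301 FPKM in L, against 3.73, 3.18 and 2.73 in D and 13.9, 11.1 and 12.5 in A. Large heat shock proteins and chaperonins gave 4 higher and 3 lower of 124.

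Of 23 thiamine genes tested, 8 were higher and none lower than the mid-parent. In all 8 D lay between L and A, as it did at 780 of all 1110 higher genes. The thiazole synthase gene Gh_D06G1594;Gh_D06G1593, whose enzyme makes the thiazole ring of vitamin B1, had 119, 104 and 156 FPKM in L, against 9.58, 28.2 and 20.2 in D and 0.222, 0.540 and 3.78 in A. On the log2 scale it departed from the mid-parent by 4.33 ± 0.39, adjusted p = 3.91e-07. ThiaminC, the gene for the pyrimidine part of the vitamin in Arabidopsis, had 31.4, 23.5 and 29.7 FPKM in L, against 0.883, 1.42 and 1.21 in D and 0.337, 0.392 and 0.245 in A at Gh_A03G0420. Gh_D03G1125, of the same description, had 49.4, 40.7 and 55.2 FPKM in L, against 2.13, 3.32 and 2.501 in D and 1.26, 1.16 and 1.31 in A. Log2 differences from the mid-parent there were 4.10 and 4.11. The thiazole synthases Gh_A01G0581 and Gh_D01G0592, picked afterwards, were 3.65 and 3.74 above it. The exception to non-overlap among the 8 was Gh_A06G1268;Gh_A06G1269, also picked afterwards, with 15.3, 5.16 and 5.5 FPKM in L, against 1.03, 16.9 and 0.769 in D and 0.0215, 0.272 and 1.36 in A, and the second D library exceeded all L libraries. The list's median log2 difference was 0.25.

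Called genes of carbon fixation were all lower in L. Of 56 Calvin cycle genes tested, 9 were lower and none higher than the mid-parent, 11 lower than in A and 8 lower than in D, with none higher in either. Rubisco activase, the chaperone that frees inhibited Rubisco, was lower at Gh_D06G1799, with 742, 694 and 667 FPKM in L, against 2300.3, 2254 and 2789 in D and 2388, 2853 and 2776 in A. Against the mid-parent, the log2 difference was -1.86 ± 0.11, adjusted p = 2.88e-09. That name occurs at 2 loci, and reads shared among near-identical activase genes could be split between them. The Rubisco small chain gene with the highest level, Gh_D11G1671, had 4577, 4477 and 5044 FPKM in L, against 5169, 4929 and 5615 in D and 5386, 5379 and 5138 in A and did not pass (log2 -0.17 ± 0.13, adjusted p = 0.425). Phosphoribulokinase Gh_D03G1842, which regenerates the acceptor of carbon dioxide, and the A subunit type of glyceraldehyde-3-phosphate dehydrogenase Gh_A01G0826, were both picked afterwards. Their log2 differences from the mid-parent were -1.65 and -1.35. The kinase gene had 62.03, 61.9 and 52.4 FPKM in L, against 169, 164 and 163 in D and 226, 204 and 197 in A. The summed level of the list was 17946 to 19550 FPKM in L, against 28727 to 32486 in D and 31894 to 32948 in A.

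Photorespiration, which salvages the product of Rubisco's reaction with oxygen, gave 6 lower and none higher of 47. Catalase 2, which removes its hydrogen peroxide, accounted for 4 of the 6. Gh_A02G1698 had 346, 305 and 331 FPKM in L, against 556, 645 and 704 in D and 698, 762.2 and 755 in A. Relative to the mid-parent it changed by -1.06 ± 0.13, adjusted p = 1.31e-05, in log2 units, and Gh_A01G0845 had 30.7, 18.5 and 15.03 FPKM in L, against 58.8, 56.6 and 63.8 in D and 52.9, 50.9 and 54.5 in A. L and the mid-parent differed by -1.41 ± 0.19, adjusted p = 3.60e-05 on the log2 scale. The remaining 2, Gh_A01G1403 and Gh_D01G1644 (picked afterwards), encode hydroxypyruvate reductase and differed from the mid-parent by -1.15 and -1.05. Serine hydroxymethyltransferase 3 Gh_A06G0791, picked afterwards, was 1.03 above A but not called against the mid-parent. The count of higher genes was 4 with a pseudocount of 0.1, 2 without the first L library and 1 without the first A library. In neither of the named catalase genes did L overlap a parent.

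Of 52 light-harvesting genes, 1 was higher and 3 lower than the mid-parent (7.69% called, against 3.13% over all genes), and of 125 photosystem genes 2 were higher and none lower (1.6%). L lay outside all 6 parental libraries in 2 of the 4 light-harvesting calls. The largest of the 3 falls, Gh_A10G0361, was listed at 0 in each L library. The 1 rise, Gh_D13G0236, was also 1 of the 2 photosystem calls. Lhca2-type Gh_D01G1508 had 1090.5, 949.9 and 992 FPKM in L, against 1087, 952 and 1068 in D and 773, 793 and 794 in A. Photosystem I subunit H2 Gh_D05G1244 had 1562, 1479 and 1447 FPKM in L, against 1420.4, 1256 and 1379 in D and 1172, 1199 and 1174 in A, and neither gene was called. At the level of D were Lhca1-type Gh_D13G0236, with 601, 519.9 and 354 FPKM in L, against 463, 402 and 433 in D and 89.5, 90.6 and 101.1 in A, and protochlorophyllide oxidoreductase A Gh_D05G3468, the light-driven enzyme of chlorophyll synthesis. The second had 317, 282 and 303 FPKM in L, against 313, 315 and 319 in D and 100.98, 103 and 139 in A, and in both genes L overlapped D and lay above A.

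Myo-inositol-1-phosphate synthase 2 Gh_A02G1268, the entry enzyme of inositol synthesis, lay below both parents, with 79.5, 105 and 90.2 FPKM in L, against 294, 334 and 299.9 in D and 1006, 859 and 719.8 in A, and differed from A by -3.22 and from D by -1.75. Starch genes moved both ways, 10 higher and 7 lower of 103. The 7 lower were beta-amylases and starch synthase 2, led by beta-amylase 3 Gh_D10G1656, a chloroplast enzyme that degrades starch at night in Arabidopsis, with 2.43, 2.203 and 1.403 FPKM in L, against 7.64, 9.12 and 9.65 in D and 11.8, 16.7 and 25.3 in A. Its log2 difference from the mid-parent was -2.16 ± 0.19, adjusted p = 4.09e-07. The 10 higher held an ADP-glucose pyrophosphorylase gene, Gh_A03G1723, which supplies starch synthesis and had 30.2, 15.4 and 16.99 FPKM in L, against 4.75, 5.197 and 5.14 in D and 3.03, 2.33 and 2.21 in A. On the log2 scale it departed from the mid-parent by 2.19 ± 0.29, adjusted p = 3.62e-05. L overlapped neither parent in either of these 2 genes. Disproportionating enzyme 2 Gh_D06G1180, which handles maltose from starch breakdown and was picked afterwards, had 66.97, 63.7 and 72.9 FPKM in L, against 34.1, 40.3 and 36.5 in D and 11.5, 12.1 and 13.3 in A. It stood 2.37 above A and 0.86 above D. Glucose-6-phosphate dehydrogenase 6 Gh_A05G2978, the cytosolic entry to the pentose phosphate pathway, had 7.43, 9.02 and 7.701 FPKM in L, against 2.396, 3.13 and 2.78 in D and 1.31, 1.27 and 1.31 in A. Against the mid-parent, the log2 difference was 1.62 ± 0.10, adjusted p = 6.01e-09. Aldehyde dehydrogenase 11A3 Gh_Sca078461G01 was the largest fall of the KEGG carbon metabolism list (8 higher and 37 lower of 775), with 9.09, 13.4 and 2.599 FPKM in L, against 70.02, 51.4 and 54.1 in D and 68.2, 78.98 and 72.7 in A.

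Of 24 sulfate genes, 8 were lower and none higher than the mid-parent, 12 lower than in A and 2 lower than in D, and the list's median difference was -0.76. D was itself below A at 8 of the 24. Sulfate transporter 91 Gh_D01G1467 had 5.71, 5.42 and 5.63 FPKM in L, against 13.6, 16.9 and 15.7 in D and 22.7, 25.6 and 24.8 in A. Relative to the mid-parent it changed by -1.63 ± 0.18, adjusted p = 3.34e-06, in log2 units, and L lay below every parental library. ATP sulfurylase 1 Gh_D02G0399, the first step of sulfate assimilation, had 10.8, 10.8 and 11.3 FPKM in L, against 9.26, 9.14 and 10.6 in D and 66.6, 42.9 and 49.2 in A: L was -2.15 from A and 0.17 from D, the level of D. Sulfite reductases Gh_A13G1875 and Gh_D13G2263, picked afterwards, were -1.17 and -1.13 from the mid-parent.

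Of 51 nitrogen genes, 4 were lower and 1 higher, and the list's median difference was -0.05. Nitrite reductase 1 Gh_A13G0352, which makes ammonium in the chloroplast, had 14.8, 17.5 and 12.9 FPKM in L, against 35.5, 28.4 and 38.03 in D and 63.2, 66.5 and 69.9 in A. L and the mid-parent differed by -1.61 ± 0.14, adjusted p = 2.38e-07 on the log2 scale. The highest-expressed nitrogen gene, glutamine synthetase 2 Gh_D02G0311, had 547, 489 and 555 FPKM in L, against 437, 449.95 and 467 in D and 513, 501 and 494 in A and was not called. Of 63 phosphate genes, 6 were lower and none higher, with a median difference of 0.02. Purple acid phosphatase 10 Gh_A06G1838, a secreted scavenger of phosphate, had 3.801, 3.12 and 1.85 FPKM in L, against 10.5, 10.02 and 10.001 in D and 25.001, 23.1 and 21.7 in A. Its log2 difference from the mid-parent was -2.10 ± 0.14, adjusted p = 1.54e-08. In both called genes L lay below D and D below A without overlap.

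Aquaporins, the water channels of the plasma membrane and tonoplast, gave 14 lower and 1 higher of 72, with 18 lower than in A and 11 lower than in D. Plasma membrane intrinsic protein 2 Gh_A09G1405 had 7.204, 11.4 and 5.05 FPKM in L, against 25.9, 28.7 and 27.1 in D and 63.8, 53.2 and 59.2 in A. On the log2 scale it departed from the mid-parent by -2.27 ± 0.17, adjusted p = 3.93e-08. Its name occurs at 2 loci. The closely named Gh_D09G1409 and Gh_D04G1090, picked afterwards, were -1.997 and -2.01 from the mid-parent, the second with 16.7, 17.2 and 12.5 FPKM in L, against 48.04, 51.4 and 49.6 in D and 87.99, 84.4 and 79.99 in A. The 1 rise was tonoplast intrinsic protein 4;1 Gh_D06G0982, with 139.8, 91.1 and 89.1 FPKM in L, against 50.7, 52.2 and 55.1 in D and 36.3, 35.9 and 32.9 in A. Against the mid-parent, the log2 difference was 1.26 ± 0.16, adjusted p = 2.19e-05. In the 2 channels named first for falling and for rising, Gh_A09G1405 and Gh_D06G0982, L overlapped neither parent. The most abundant aquaporin, Gh_D08G1970, had 218, 216 and 254 FPKM in L, against 217, 228 and 200.3 in D and 279, 238 and 246 in A and was not called. The summed level of the list was 1650 to 1734 FPKM in L, 1595 to 1695 in D and 2000 to 2101 in A.

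**Figure D4:**
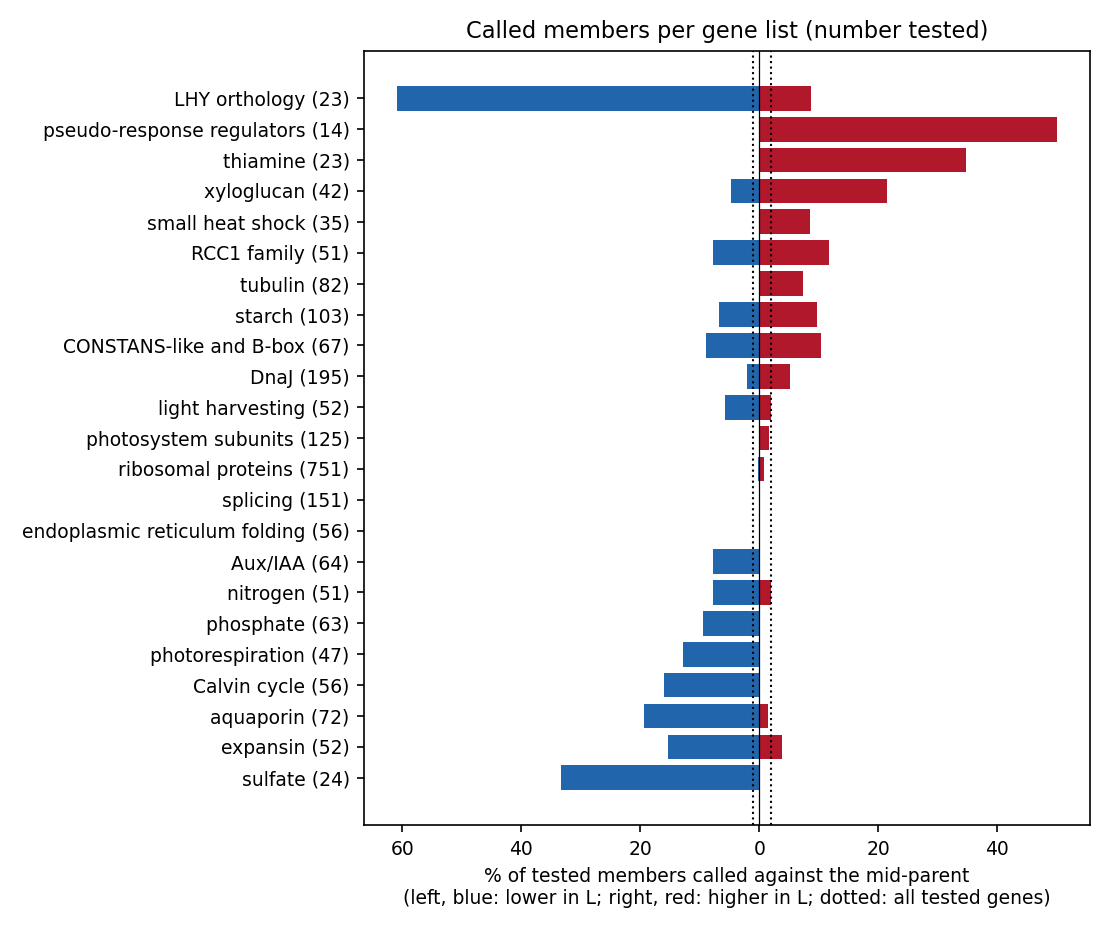
For each gene list (y axis, with the number of genes tested), the share of tested members called higher (red, right) and lower (blue, left) in L than the mid-parent (x axis, percent); dotted lines mark the shares over all genes tested, 2.02% higher and 1.11% lower. The LHY orthology list reaches farthest to the left (14 of 23) and the pseudo-response regulators farthest to the right (7 of 14), while splicing and endoplasmic reticulum folding genes have no bar. The LHY orthology and RCC1 family lists were made after the values were seen, so the rank of their bars among the lists is only a description.

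Of 64 Aux/IAA genes, repressors of auxin responses, 5 were lower and none higher than the mid-parent, a count that was 3 without the first L library. Gh_D10G1512 had 2.22, 1.995 and 2.26 FPKM in L, against 8.82, 10.6 and 9.56 in D and 7.06, 5.56 and 5.78 in A. Relative to the mid-parent it changed by -1.46 ± 0.11, adjusted p = 4.74e-08, in log2 units. The most abundant, indoleacetic acid-induced protein 16 Gh_D13G1818, had 42.7, 49.97 and 48.3 FPKM in L, against 46.02, 45.5 and 42.9 in D and 51.6, 58.6 and 57.4 in A and was not called. Of 82 tubulin genes, 6 were higher and none lower than the mid-parent, 11 higher than in A and 6 higher than in D. Gh_A01G1767 had 28.7, 28.7 and 33.3 FPKM in L, against 10.01, 11.2 and 7.89 in D and 6.29, 3.203 and 4.02 in A. L and the mid-parent differed by 2.05 ± 0.13, adjusted p = 8.28e-09 on the log2 scale. Beta-6 tubulin Gh_A08G2381, the most abundant, had 295, 304 and 345 FPKM in L, against 246, 261 and 254 in D and 149.6, 169 and 232 in A and was not called. Markers of dividing cells summed to 259 to 360 FPKM in L, 180 to 228 in D and 216 to 372 in A, with 1 of 82 tested called higher and none lower; their part in the tubulin result was not tested.

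Of 42 xyloglucan endotransglucosylase/hydrolase genes, which cut and rejoin wall xyloglucan, 9 were higher and 2 lower than the mid-parent, and 8 were higher and none lower relative to the departures of H and M. D was itself below A at 10 of the 42 and above it at none, and D enters both comparisons. L was higher than A at 6 and lower at 2, and higher than D at 10 and lower at none. D lay between L and A in 0 of the 9 rises, and L lay outside all 6 parental libraries in 7 of the 11 calls. The first M library stood apart, with 15.6% of its summed FPKM in 10 genes, and without it, in a fit added after the data were seen, 6 xyloglucan genes were higher and none lower. Over the 82 tested markers of dividing cells, the summed level was 244 to 343 FPKM in L, 189.6 to 239 in H, 115 to 286 in M, 167 to 212 in D and 204 to 356 in A. Relative to the departures of H and M, 1 of these markers was called higher and none lower. Their median difference from those departures was 0.43, against 0.47 for the xyloglucan list and 0.01 over all genes. Their part in the result was not tested. Gh_D02G0992 had 46.5, 24.4 and 20.4 FPKM in L, 0.865, 2.503 and 1.46 in H, 3.33, 2.21 and 3.58 in M, 1.12, 0.418 and 0.466 in D and 2.31, 4.31 and 3.18 in A. Its difference from the mid-parent was 3.50 ± 0.35, adjusted p = 1.24e-06, and its difference from the departures of H and M was 3.29 ± 0.39, adjusted p = 2.48e-04. The lowest L library exceeded the highest library of each of H, M, D and A, and the first L library was the highest of the 3. Gh_A05G3992, a xyloglucan endotransglycosylase 6, had 17.1, 5.07 and 5.81 FPKM in L, 0.491, 0.301 and 0.305 in H, 0.869, 0.997 and 0.269 in M, 0.436, 0.530 and 0.239 in D and 1.33, 2.13 and 2.49 in A, a difference from H and M of 2.67 ± 0.29, adjusted p = 1.37e-04. Gh_D05G3929 and Gh_A02G1347;Gh_A02G1346 differed in the same way, by 2.14 and 2.42, the second with 6.83, 4.91 and 3.97 FPKM in L, 0.134, 0.0634 and 0 in H, 0.381, 0.644 and 0.308 in M, 0.175, 0 and 0.0339 in D and 0.642, 1.49 and 0.635 in A. In the 4 genes the first L library was the highest, and the call of Gh_D05G3929 against A was lost without it, without the first A library, or with only the 9 libraries in the fit.

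Xyloglucan gene Gh_D02G1891 stood near the maternal parent A, with 49.3, 57.4 and 67.7 FPKM in L, 13.2, 15.4 and 13.2 in H, 74.1, 104 and 50.7 in M, 15.6, 11.02 and 11.1 in D and 45.4, 37.998 and 53.1 in A. L was 0.35 from A and 2.13 from D, and M was as high as L. The difference of its departures was 1.49 ± 0.20, adjusted p = 0.00109, with H at the level of D. The 2 falls, Gh_D11G0639 and Gh_A11G0556 (the second picked afterwards), differed from the mid-parent by -1.44 and -1.07, and 1 of these 2 calls was lost without the first or without the third L library.

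Expansins loosen walls without cutting them. Of 52 tested, 8 were lower and 2 higher than the mid-parent, and 5 were lower and 2 higher relative to H and M, the same counts as without the first M library. Expansin A8 Gh_D04G1924 had 16.5, 21.8 and 25.3 FPKM in L, 47.1, 44.8 and 45.05 in H, 30.998, 29.3 and 37.4 in M, 82.4, 83.9 and 95.5 in D and 47.8, 53.7 and 45.5 in A. Its difference from the mid-parent was -1.597 ± 0.12, adjusted p = 5.35e-08 and from the departures of H and M -1.02 ± 0.14, adjusted p = 8.52e-04, and the second was below the 2-fold limit without the first L or the third D library and when all libraries were scaled to 1 sum. Gh_D05G2650 and Gh_A13G0050, also expansin A8, differed from H and M by -1.41 and -1.33, the first with 4.48, 4.75 and 5.94 FPKM in L, 13.9, 14.4 and 13.5 in H, 8.68, 7.52 and 12.97 in M, 19.6, 20.2 and 22.7 in D and 10.9, 11.7 and 11.4 in A. In each of the 3 genes the L libraries were the lowest of the 5 genotypes. Expansin-like A2 Gh_A01G1439 was high in L, M and A and low in H and D, with 19.6, 9.197 and 9.43 FPKM in L, 0.801, 1.41 and 1.43 in H, 8.15, 7.95 and 7.92 in M, 1.12, 0.791 and 1.096 in D and 6.53, 11.7 and 12.2 in A.

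Outside the wall, 3-ketoacyl-CoA synthase 11 Gh_A09G1935, of the family that builds very long chain fatty acids, had 23.1, 16.4 and 17.8 FPKM in L, 0.927, 0.733 and 1.07 in H, 1.42, 1.08 and 1.49 in M, 9.34, 9.005 and 8.39 in D and 1.66, 2.15 and 2.87 in A. Its difference from the mid-parent was 1.82 ± 0.13, adjusted p = 3.23e-08 and from the departures of H and M 2.22 ± 0.15, adjusted p = 2.70e-07. All 3 L libraries lay above every library of H, M, D and A. The call against D was lost when the first L or the third D library was left out and on quantile-normalized values.

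**Figure D5:**
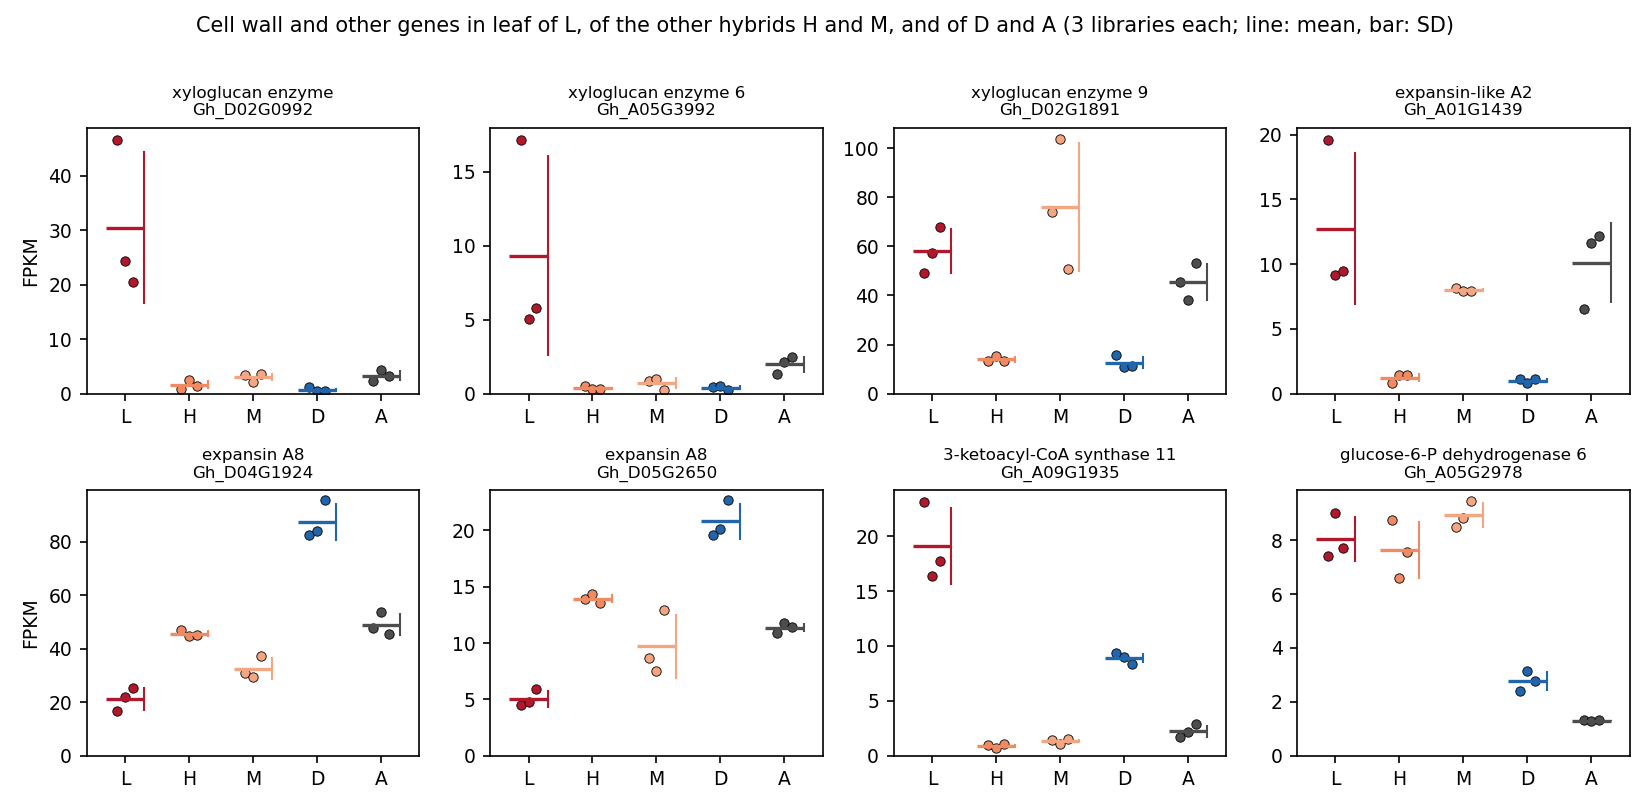
FPKM (y axis, linear, from 0) of 8 genes in the 3 leaf libraries of L, of the hybrids H and M, and of D and A (points; horizontal line, mean; vertical bar, SD). The first 2 xyloglucan genes and the ketoacyl-CoA synthase are highest in L, both expansin A8 genes are lowest in L, and glucose-6-phosphate dehydrogenase 6 lies higher in L, H and M than in D and A.

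Among the 547 genes like D, pyridine nucleotide-disulphide oxidoreductase Gh_A03G0591 had a wide contrast, with 292, 279 and 262 FPKM in L, against 362, 321 and 353 in D and 6.37, 6.12 and 10.2 in A. L was 5.06 above A and -0.31 from D. Terpenoid cyclase Gh_D11G3404 had 12.6, 14.6 and 12.8 FPKM in L, against 18.5, 14.8 and 13.3 in D and 0, 0.0783 and 0.0251 in A. Tetratricopeptide repeat gene Gh_A11G1258 was low in L and D, with 1.101, 0.974 and 1.02 FPKM in L, against 0.585, 0.836 and 0.414 in D and 20.2, 15.6 and 10.4 in A. Among the 323 genes like A, terpene synthase 21 Gh_D11G2904 had 5.19, 8.59 and 6.21 FPKM in L, against 0.0781, 0.0701 and 0.0122 in D and 10.4, 9.902 and 8.75 in A. The unnamed locus MSTRG.88593 had 8.72, 8.32 and 8.19 FPKM in L, against 0 in each library of D and 9.08, 10.5 and 11.2 in A. In these genes the parents did not overlap, and L was not called different from the parent it is grouped with, although its libraries overlapped those of that parent only in the terpenoid cyclase gene.

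For the 263 genes between the parents, the ratio of the mean FPKM of L to the arithmetic mean of D and A had a median of 0.867, with quartiles of 0.749 and 0.975. Some examples were picked afterwards. EXS family gene Gh_A09G0220 had 11.9, 11.1 and 12.2 FPKM in L, against 22.8, 22.6 and 21.999 in D and 0.0316, 0.0301 and 0.0370 in A, a ratio of 1.04. Xylem bark cysteine peptidase 3 Gh_A06G1157 had 43.03, 34.9 and 21.1 FPKM in L, against 3.01, 2.56 and 2.57 in D and 61.2, 69.8 and 54.8 in A, a ratio of 1.02. NCED4 Gh_D12G2009, a carotenoid-cleaving dioxygenase whose name occurs at 2 loci, had 23.6, 16.6 and 21.05 FPKM in L, against 78.7, 86.3 and 103 in D and 0.265, 0.249 and 0.269 in A, a ratio of 0.455. Over the genes above both parents the median ratio was 2.77, and over those below both 0.355.

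Some called genes were listed at 0 in all 3 libraries of a genotype. This held for 176 of the 2679 genes called against A, 109 of the 1626 against D and 135 of the 1716 against the mid-parent. Photosystem I subunit G, which green leaves use for photosynthesis, was among them: Gh_A04G0007 had 672, 631 and 635 FPKM in L, 0 in each library of H, 657, 619 and 0 in M, 523, 474 and 462 in D and 0 in each library of A. Libraries of M differed among themselves in whether it was listed at 0, and a listing at 0 is given only as that. The name Gh_D05G3725, with the same description, had 613, 546 and 534 FPKM in L, 509, 0 and 0 in H, 559.6, 549 and 0 in M, 524, 435 and 450.4 in D and 0 in each library of A. GRAS transcription factor gene Gh_D07G0779 was listed at 56.1, 61.2 and 62.9 FPKM in L, at 0, 0 and 65.7 in D and at 0 in each A library. Light-harvesting gene Gh_A10G0361 was listed at 0 in each L library, against 29.9, 13.6 and 16.3 FPKM in D and 7.42, 0 and 0 in A. No fold is given for these. With only the 47501 genes above 0 in all 9 libraries, a check added after the data were seen, 865 genes were higher and 551 lower than the mid-parent, and 1043 lay above and 673 below both parents.

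In the lists called in 1 direction only against the mid-parent (Calvin cycle, photorespiration, sulfate, phosphate, thiamine, small heat shock, Aux/IAA and tubulin), an unadjusted p under 0.05 in limma also called 0 genes in the other direction. None of 151 splicing genes and none of 56 endoplasmic reticulum folding genes was called against the mid-parent, either by the main limits or at an unadjusted p under 0.05, or against either parent. The KEGG list for protein processing in the endoplasmic reticulum gave 21 higher and 3 lower of 913 against the mid-parent, beside 2.02% higher and 1.11% lower over all genes. Ribosomal proteins gave 6 higher and 2 lower of 751, neither above the shares over all genes (2.02% higher and 1.11% lower). Among the ribosomal genes, L31 Gh_D05G1833 had 31.2, 31.1 and 40.2 FPKM in L, against 0.411, 0.0703 and 0 in D and 0.0544, 0.367 and 0 in A. Pentatricopeptide proteins gave 4 higher and 3 lower of 126 (5.56% called, against 3.13% over all genes). Cellulose synthases gave 1 higher of 56, pectin genes 1 higher of 119, gibberellin genes none of 19, and jasmonate genes 1 higher of 72. Of the pectin genes, 10 of 119 were lower in L than in A, 1 was lower than in D and none lower than the mid-parent. Of the flavonoid genes, 7 of 34 were lower than in A, 1 was lower than in D and 1 lower than the mid-parent. The KEGG list for the spliceosome gave 16 higher and 2 lower of 844, neither above the shares over all genes (2.02% higher and 1.11% lower). None of the 151 genes described as splicing factors was among those called. Its largest rise was cold, circadian rhythm and RNA binding 2 Gh_D13G2550, with 57.8, 63.5 and 131 FPKM in L, against 21.3, 32.1 and 21.2 in D and 5.07, 13.5 and 5.93 in A.

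Called genes carried names of both subgenomes. Of 17556 tested genes with an A-subgenome name, 1.80% were higher and 1.36% lower than the mid-parent, and of 18033 with a D-subgenome name, 1.81% and 1.18%. Loci without a name, 18377 in all, were higher more often (2.44%) and lower less often (0.789%); this difference in shares was not tested.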

How the data were processed

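Total RNA of leaves was sequenced on an Illumina instrument, with 3 biological replicates per genotype. The authors aligned reads with HISAT to the TM-1 genome and deposited FPKM values per locus from StringTie, with versions not given in the sources used here. Read counts and read totals were not used, and no counting interval is given.

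Genes at 1 FPKM or more in at least 3 of the 21 leaf libraries were kept (54835 of 100881) and log2(FPKM + 1) was fitted by genotype with limma 3.58.1 in R 4.3.3, with a mean-variance trend and Benjamini-Hochberg adjustment. The fit was tested on simulated data. Members and lists were chosen with earlier results of these data known. Lists were matched by words in the deposited annotation, and list counts carry no test.

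Named genes were those the study names for leaf, the 10 largest non-overlapping rises and falls per comparison, the 8 largest against H and M, the largest rise, fall and level of each list, and the 5 widest parental differences in each direction among parent-like genes. Names shared by several loci, and near-identical copies, are uncertain.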

Additional observations from a re-analysis of the deposited data

Results flagged for a closer look

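The departure of L from its mid-parent was compared with the mean departure of H and M from theirs by a contrast in the fit over all 21 leaf libraries. Of the genes named by the rule, 16 passed it. Gh_A09G0220 (1.34) and Gh_A06G1157 (1.42), picked afterwards as examples between the parents, passed it too and are not among the 16. All differences are on the log2(FPKM + 1) scale, and positive ones mean that L departed further upward.

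Cell wall genes made up 9 of the 16, which the naming rule drew in part from the xyloglucan and expansin lists. Over all 163 genes called by this contrast, those lists held 15 (9.20%). Upward were the xyloglucan genes Gh_D02G0992 (3.29), Gh_A05G3992 (2.67), Gh_A02G1347;Gh_A02G1346 (2.42), Gh_D05G3929 (2.14) and Gh_D02G1891 (1.49), with expansin-like A2 Gh_A01G1439 (2.33). In Gh_D02G1891 and Gh_A01G1439 the levels of M were high as well. Downward were the expansin A8 genes Gh_D04G1924 (-1.02), Gh_A13G0050 (-1.33) and Gh_D05G2650 (-1.41).

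The fitted differences of both unnamed loci rest on libraries listed at 0, which can be failed estimates, and they depend on the pseudocount and are no measure of fold. The unnamed locus MSTRG.79929 (3.29) had 16.3, 9.25 and 10.2 FPKM in L, 9.63, 0 and 0 in H, 0 in each library of M, 0 in each library of D and 8.76, 17.96 and 13.7 in A. Its call was lost without any 1 library of L or D, without the first M library, with the replicate block and with no filter. The unnamed locus MSTRG.80781 (-3.31) had 0, 0 and 0 FPKM in L, 9.41, 24.1 and 20.4 in H, 0 in each library of M, 14.3, 8.22 and 13.4 in D and 0 in each library of A, and its call was lost without the second or the third L library. The others were 3-ketoacyl-CoA synthase 11 Gh_A09G1935 (2.22), Gh_D12G2040 (1.57), Gh_A03G1891 (1.57), Gh_D05G2541 (1.11) and Gh_A02G1471 (-1.16). The call of Gh_A03G1891 was lost without any 1 library of L, the first M library, the third A library or the second or the third D library, with the replicate block, with no filter and with a pseudocount of 0.1. The call of Gh_A02G1471 was lost without the second L library, and that of Gh_D12G2040 with a pseudocount of 0.1.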

How the results depend on the processing

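The counts against A, D and the mid-parent kept within 1.5 times of their values under every alternative other than a pseudocount of 0.1, which gave 4568 calls against A, 2999 against D, 3440 against the mid-parent, 2145 between D and A, 251 against H and M, 590 genes like A and 1006 like D. In the lists it also gave 4 photorespiration genes higher than the mid-parent, against 0, and 16 CONSTANS-like and B-box genes, against 7. An unadjusted p gave 724 calls against H and M and 401 genes between the parents. With the 2-fold limit in every call, 527 genes lay above both parents, 360 below both and 44 between. With only genes above 0 in all 9 libraries, chosen after seeing the data, 164 lay between. The cause was not tested.

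Leaving out 1 library of L, D or A at a time, or the first M library (chosen after seeing the data), gave 2548 to 2803 calls against A, 1496 to 1698 against D, 1669 to 1801 against the mid-parent, 1152 to 1250 between D and A and 129 to 179 against H and M. It gave 997 to 1197 genes above both, 630 to 716 below both, 279 to 344 like A, 480 to 637 like D and 195 to 266 between. Of 392 results for named genes, 307 kept their call in every alternative, 85 lost it in at least 1, and none turned its direction. Same-numbered libraries of L, D and A showed no shared deviation across genes (correlations of -0.0437 to 0.0265). That cannot show whether the numbers pair the samples. With the replicate block the calls were 2676 against A, 1618 against D, 1707 against the mid-parent, 1217 between D and A and 152 against H and M. Without counts, the counting error of low genes is not shown by these values.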

Other observations

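Of 80 light receptor genes tested, 2 were called against the mid-parent (2.50%), near the 3.13% over all genes. Phototropin 1 Gh_A05G0854, which steers growth and chloroplast movement by blue light, had 60.4, 58.7 and 71.1 FPKM in L, against 39.5, 40.4 and 40.6 in D and 13.4, 14.5 and 16.8 in A. It had a log2 difference from the mid-parent of 1.33 ± 0.11, adjusted p = 1.43e-07 (limma). Cryptochrome 3 Gh_D06G1145 had 2.82, 4.45 and 3.47 FPKM in L, against 6.79, 6.83 and 6.01 in D and 8.99, 10.5 and 11.5 in A, a log2 difference of -1.03 ± 0.12, adjusted p = 8.26e-06 (limma). In both D lay between L and A without overlap, and the call of Gh_D06G1145 against the mid-parent was lost without the first L library or without the third A library.

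Of the stress-related families, peroxidase and defence genes gave calls both ways, beside 3.13% called over all genes. Of 87 peroxidase genes 4 were higher and 2 lower than the mid-parent (6.90%), of 61 glutathione S-transferase genes 2 were lower (3.28%), and of 180 defence genes 4 were higher and 4 lower (4.44%).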
